A study of Homo sapiens with 2 samples.

Results

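The epithelial sodium channel, ENaC, is built from subunits encoded by SCNN1A (alpha), SCNN1B (beta), SCNN1G (gamma) and SCNN1D (delta), and all 4 genes were found by symbol among the 23352 genes of the deposited gene tables. Their 59 exon records were taken from the 230470 records of the exon tables. The genes were chosen by their measured read counts, because SCNN1B and SCNN1G were already known to differ between the libraries, so their levels and differences are given as a description. RNA came from A673, an established human Ewing sarcoma cell line, after lentiviral delivery of a short hairpin against the transcription factor RUNX3 (sh813) or of a control hairpin without a target (shNT). Virus was produced in HEK 293T cells and collected at 72 hours, 6 µg/mL polybrene was present at transduction, and both populations were kept in 0.4 µg/mL puromycin for 6 days. Each group is 1 library made from a pool, not a clone, so the 2 libraries are compared with each other and no difference has a replicate check or a p-value.

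For both libraries the title and the shRNA characteristic name opposite hairpins. Names here follow the titles, as the 813 library and the NT library, and every direction below would turn round if the characteristics were right. RUNX3, the targeted gene, had 387 pairs in the 813 library and 1391 in the NT library, a log2 fold of -1.92 (-2.09 to -1.76), which goes with the titles. Depth was 23342660 counted read pairs in the 813 library and 24326135 in the NT library. CPM are read pairs per 1e6 of the TMM-adjusted library size, a log2 fold is always 813 over NT, and ranges in parentheses are exact 95% binomial intervals that cover counting error only. Genes that reached 1 CPM in at least 1 library count as measured, and a gene was called higher or lower when it differed 2-fold or more with its interval wholly beyond 1.5-fold. By this rule 8.13% of 12254 measured genes were higher, 3.48% lower and 11.6% either. Higher genes were 70.0% of the calls, against 81.4% with plain total counts, which moved the median log2 fold of measured genes up by 0.13.

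ENaC lets sodium enter the apical side of epithelial cells in kidney, lung, colon and sweat gland. The classical channel joins alpha, beta and gamma subunits; delta can take the place of alpha, and beta and gamma form little current on their own in expression systems. Furin and other proteases cleave the alpha and gamma subunits and raise the channel's activity, while the ubiquitin ligase NEDD4L binds the subunits' cytoplasmic tails and removes the channel from the membrane. Aldosterone, acting through the mineralocorticoid receptor and the kinase SGK1, opposes that removal.

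SCNN1B and SCNN1G are related genes on one chromosome, and related sequences could exchange reads. The longest run of identical letters between their coding sequences was 15 bases. It is shown because these are the 2 subunit genes that were called. SCNN1A and SCNN1G also shared a run of 15 bases, and SCNN1A and SCNN1D one of 28. It lies in exon 2 of both genes, at chr16:23348672-23348726 for SCNN1B and chr16:23186353-23186407 for SCNN1G (GRCh38, plus strand, GENCODE release 29 transcripts), with the shared run in capitals and 20 bases of each gene on either side:
SCNN1B: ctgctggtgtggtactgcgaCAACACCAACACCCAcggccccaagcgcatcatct
SCNN1G: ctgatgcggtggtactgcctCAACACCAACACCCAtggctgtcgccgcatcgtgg
The aligned coding bases of this pair were 59.9% identical, and the other pairs of subunits lay between 59.8% and 61.6%. Of the 50-base windows of each transcript, 0 of 2548 for SCNN1B and 0 of 2995 for SCNN1D occurred in a transcript of another gene. With both strands searched, 121 of 3458 windows of SCNN1G, in exons 1 and 2, were shared with the gene AC099482.2. For SCNN1A 131 of 3432, in exon 1, were shared with its neighbour LTBR. The strand setting of the counting is not given in the sources used here, so reads in those stretches cannot be told apart. No other gene listed in the tables overlaps any of the 4 genes.

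The promoter of SCNN1B is shown because the study altered a transcription factor and this gene differed between the libraries. These are the 250 bases before the RefSeq start, chr16:23302052-23302301 (GRCh38.p14, plus strand), with the ETS core letters GGAA, read on the opposite strand as TTCC, in capitals:
SCNN1B: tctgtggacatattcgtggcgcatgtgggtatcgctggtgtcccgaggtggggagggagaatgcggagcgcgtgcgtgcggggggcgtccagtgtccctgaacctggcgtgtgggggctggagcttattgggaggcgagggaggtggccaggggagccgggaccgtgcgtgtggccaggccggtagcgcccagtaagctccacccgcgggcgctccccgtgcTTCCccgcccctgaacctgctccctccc
Searched on both strands, the RUNX core letters TGTGGT and TGCGGT and the repeat GGAAGGAA, which itself contains GGAA, were not in this window. Among 35116 RefSeq promoter windows of the same length 11.0% held TGTGGT, 5.84% TGCGGT and 3.06% GGAAGGAA, while GGAA, found once here, was in 92.7%. SCNN1G, SCNN1A and SCNN1D had no entry in the promoter table used here.

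The gamma and beta subunit transcripts were abundant in the NT library and several-fold lower in the 813 library. SCNN1G (chr16:23194040-23228200 in hg19) had 1162 pairs in the 813 library and 5630 in the NT library. These are 13.6 and 69.3 CPM per kb of transcript, and the authors' deposited RPKM values were 10.9 and 51.0. The log2 fold of -2.35 (-2.44 to -2.26) puts its level 5.10-fold lower in the 813 library, and 26 of the lower genes had a more negative fold. SCNN1B (chr16:23313591-23392620) had 239 pairs in the 813 library and 1406 in the NT library, or 3.76 and 23.3 CPM per kb. Its log2 fold was -2.63 (-2.84 to -2.43), a 6.19-fold lower level, with 9 lower genes more extreme. Both genes were high in the NT library and low in the 813 library, and the counting interval of each fold left out 0, as it did for 69.1% of measured genes. By level per kb, SCNN1G stood above 88.3% of measured genes in the NT library and above 64.7% in the 813 library, and SCNN1B above 73.3% and 42.8%.

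The subunits that can fill the alpha position gave another picture. SCNN1A (chr12:6456009-6486523) had 1 pair in the 813 library and 0 in the NT library. A count of 0 allows up to 3 pairs, or 0.0338 CPM per kb at this depth, so no fold is given. Of its 15 exon records 14 were at 0 in both libraries and the other held a single read. SCNN1D (chr1:1215816-1227409) had 158 pairs in the 813 library and 198 in the NT library, or 2.11 and 2.79 CPM per kb. Its log2 fold of -0.40 (-0.71 to -0.09) was not called, and it came to 0.06 once a trend on GC content and transcript length was removed. Of the 4 genes, 3 were measured and 2 of these were called lower, beside 3.48% of all measured genes; since this contrast chose the genes, nothing is read from that count. In these bulk libraries fewer cells with a transcript and less transcript per cell cannot be told apart.

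**Figure D1:**
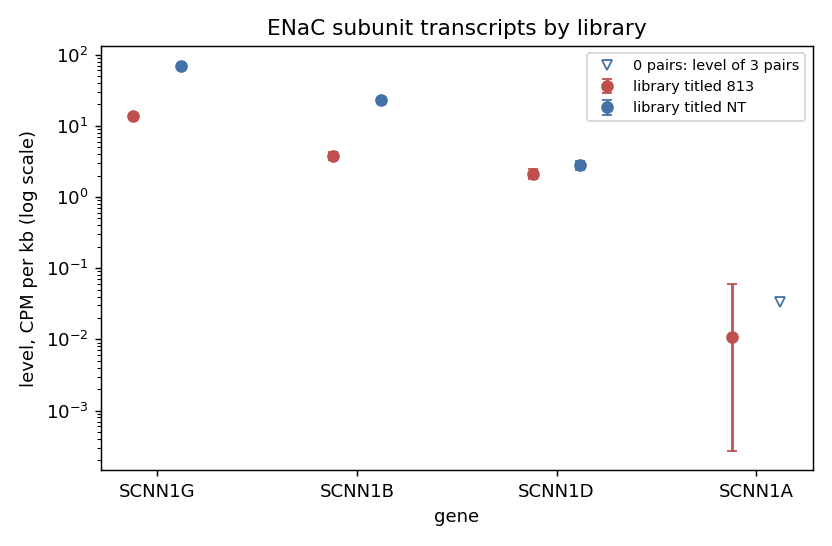
Level of each subunit transcript in CPM per kb on a log axis, 1 point for each library, with exact Poisson 95% bars that cover counting error only; the open triangle marks the level of 3 pairs where 0 were counted. SCNN1G was at 13.6 and 69.3, SCNN1B at 3.76 and 23.3 and SCNN1D at 2.11 and 2.79 CPM per kb in the 813 and NT libraries, and SCNN1A lay near the detection limit in both.

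The order of the subunits per kb was the same in both libraries, gamma above beta above delta above alpha, and no neighbours in this order overlapped within their counting intervals. In the NT library, SCNN1G was 2.97-fold (2.80 to 3.15) above SCNN1B and SCNN1B 8.35-fold (7.19 to 9.74) above SCNN1D. In the 813 library these ratios were 3.61 (3.14 to 4.17) and 1.78 (1.45 to 2.19). The ratio of gamma to beta therefore moved by 1.21-fold (1.04 to 1.41), while that of beta to delta changed to 0.213 (0.166 to 0.274) of its value in the NT library. With the trend on GC content and transcript length removed, the log2 folds of SCNN1G and SCNN1B were -2.35 and -2.30. SCNN1B then no longer had the more negative fold, so the shift between gamma and beta depends on the processing. With 0 pairs of SCNN1A in the NT library, its ratio to SCNN1G has no value there. Against a floor of 3 pairs SCNN1G was 2050-fold higher per kb. The exact 95% interval from the counts themselves, 5630 over 0, began at 1667-fold. In the 813 library, with 1 pair of SCNN1A, the ratio was 1269 (227 to 50176). The summed level of the 4 transcripts was 19.5 CPM per kb in the 813 library and 95.4 in the NT library. Delta made up 10.9% of that sum in the 813 library and 2.93% in the NT library, gamma 69.8% and 72.6%, and beta 19.3% and 24.4%.

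The difference ran along the whole of the gamma and beta genes. All 13 exon records of SCNN1G were lower in the 813 library, each with an interval wholly beyond 1.5-fold, from a log2 fold of -2.80 (-3.63 to -2.13) at the first exon (37 reads in the 813 library, 251 in the NT library) to -2.11 (-2.70 to -1.58) at the tenth (69 and 285 reads). The last and longest exon, of 1791 bases at chr16:23226410-23228200, held 1156 and 5224 reads, with a log2 fold of -2.25 (-2.38 to -2.12). Over exon records 3 to 13 alone, which leave out the stretch shared with AC099482.2, the gene's log2 fold was -2.32 (-2.41 to -2.23). Read density in the 813 and NT libraries was 7.96 and 56.9 CPM per kb at the first exon of SCNN1G, and 19.0 and 101 CPM per kb over its 11 internal exons.

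All 13 exon records of SCNN1B were lower too, each beyond 1.5-fold. The fourth exon (41 and 314 reads) had a log2 fold of -2.98 (-3.75 to -2.34) and the last, of 879 bases (118 and 811 reads), -2.85 (-3.28 to -2.46). The first exon, chr16:23313591-23313758, had 28 and 82 reads and a log2 fold of -1.59 (-2.62 to -0.72). Its fold lay 1.11 (0.08 to 1.98) above that of the other exons together on the log2 scale. This and the last exon of SCNN1G, 0.18 (0.04 to 0.31) above its gene, were the 2 of 44 exon records of the 3 measured genes whose interval left out 0. Exon reads were halved for these intervals, so the share that would leave out 0 through counting error is not known. Whether either exon departs from its gene was not tested. Density in the 813 and NT libraries was 3.41 and 10.5 CPM per kb at the first exon of SCNN1B, and 7.05 and 57.2 at the tenth.

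Of the 18 exon records of SCNN1D, 17 were lower in the 813 library and 0 had an interval beyond 1.5-fold. They held between 4 and 97 reads, so single exons of this gene could not be placed. Its first 3 exons had 1.68, 1.14 and 0.92 CPM per kb in the 813 library and 2.14, 1.20 and 1.51 in the NT library, and the short exons 15 and 16 near the 3' end 7.05 and 6.24, and 8.17 and 8.76. Exon reads over all genes exceed the gene counts, at 63565338 against 46685320 in the 813 library. Densities of short exons therefore need not match those of long ones, and densities are compared only between libraries at one exon.

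**Figure D2:**
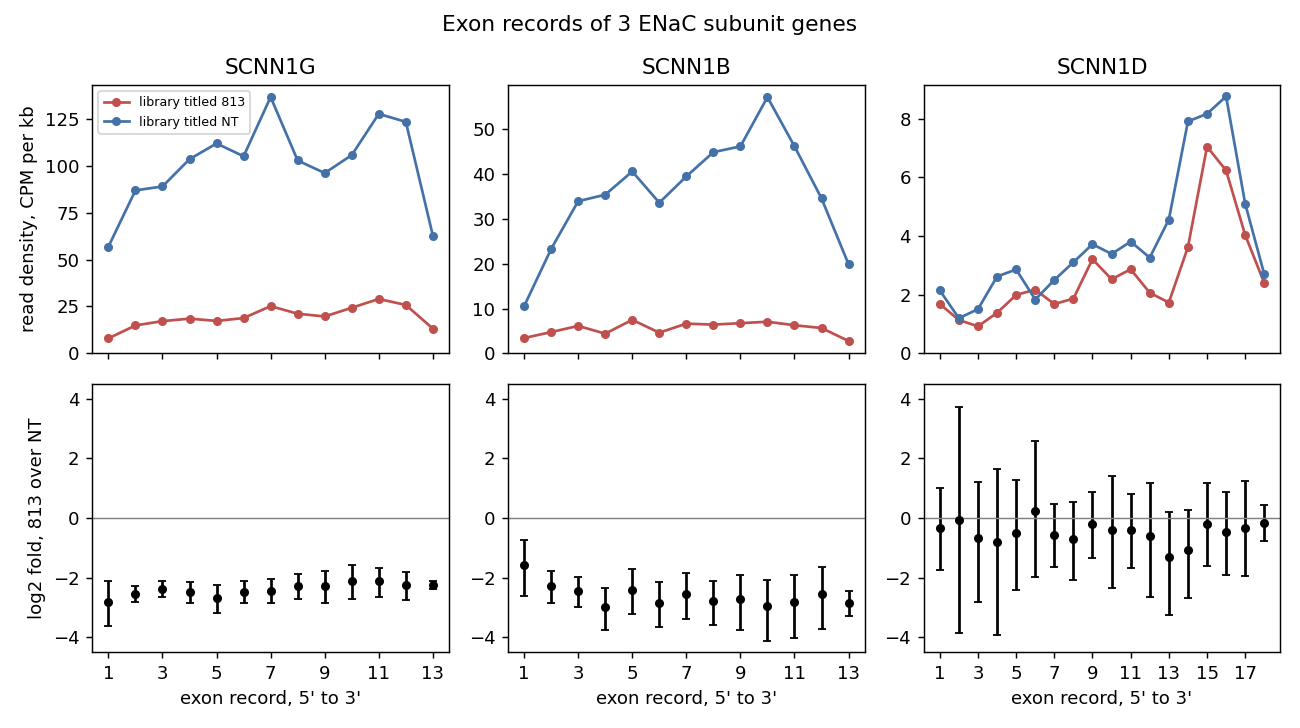
Upper row: read density in CPM per kb at each exon record from 5' to 3' in both libraries. Lower row: log2 fold of each record, 813 over NT, with 95% counting bars; the 13 records of SCNN1G and the 13 of SCNN1B lie below 0, and the bars of the 18 records of SCNN1D include 0.

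SCNN1G and SCNN1B lie side by side, 85.4 kb apart, and position played no part in choosing them. The genes within 500 kb of either were mostly level: of 15 listed, 11 were measured, 0 were higher and 1 was lower (9.09%, against 11.6% of all measured genes called), with a median log2 fold of -0.12 beside 0.01 over all measured genes. USP31, a deubiquitinase gene 33.4 kb before SCNN1G, had 564 and 506 pairs (log2 fold 0.08, -0.09 to 0.26). COG7, a subunit of a Golgi tethering complex 7.19 kb beyond SCNN1B, had 1027 and 1126 pairs (-0.21, -0.33 to -0.09). The lower neighbour was CHP2, which encodes a calcineurin B-like protein that binds sodium-proton exchangers, 373 kb beyond SCNN1B. It had 25 pairs in the 813 library and 149 in the NT library, a log2 fold of -2.63 (-3.32 to -2.03). CHP2 and SCNN1B are thus separated by genes that were not called.

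Around SCNN1A 27 of 35 genes were measured, and 1, C12orf53 at 316 kb, was higher (1.03, 0.68 to 1.39). This is 3.7% called, beside 11.6% of all measured genes. C12orf53 has no value with the trend on GC content and length removed, where TAPBPL (0.76 without that step) reached 1.16 and was called higher. The flanking TNFRSF1A, a tumour necrosis factor receptor, had 3557 and 3030 pairs (0.16, 0.09 to 0.23) and LTBR, the lymphotoxin beta receptor, 1616 and 1197 (0.36, 0.25 to 0.47), so the gene at the detection limit stood between expressed neighbours. Around SCNN1D 36 of 54 genes were measured and 1, SAMD11 at 336 kb, was higher (1.05, 0.92 to 1.19), or 2.78% called. The flanking UBE2J2, a ubiquitin-conjugating enzyme, and ACAP3, an Arf GTPase-activating protein, had log2 folds of -0.22 (-0.29 to -0.14) and -0.14 (-0.22 to -0.06).

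**Figure D3:**
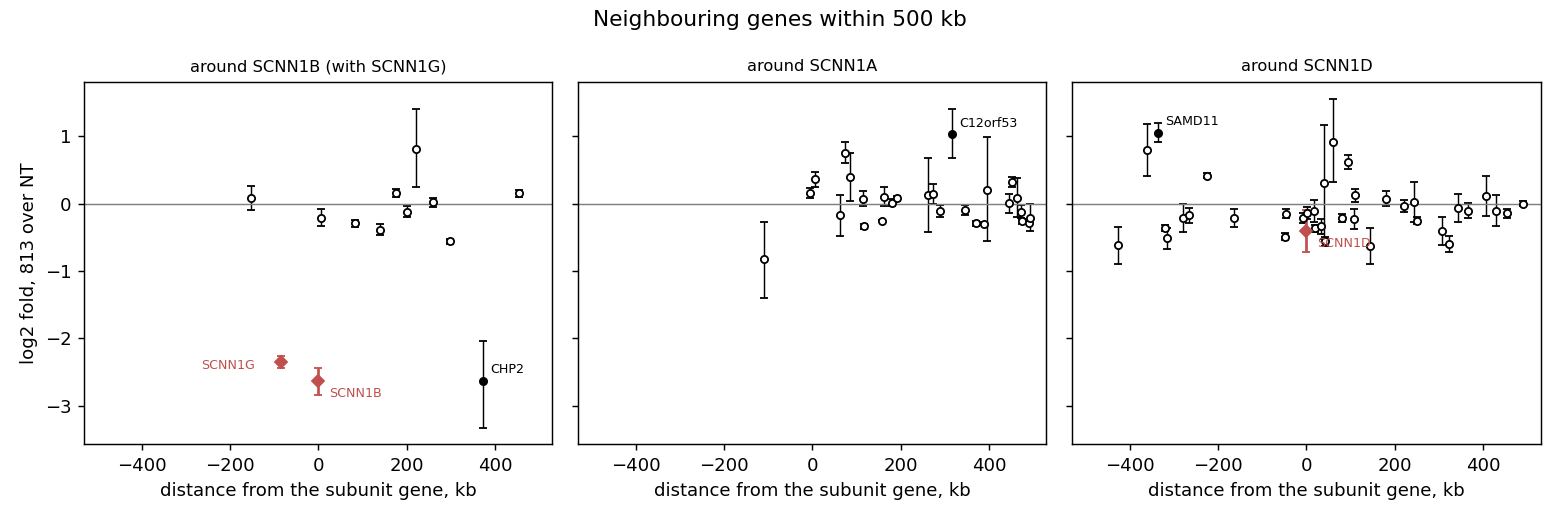
Log2 fold of each measured gene within 500 kb, 813 over NT, against its distance from the subunit gene in kb along the chromosome, with 95% counting bars; filled circles are called genes and red diamonds the subunit genes. Around SCNN1B the measured neighbours other than CHP2 (-2.63) were not called, while SCNN1G and SCNN1B lay at -2.35 and -2.63.

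Genes that process, regulate or partner ENaC, together with its acid-sensing channel relatives, were taken as 6 lists of 71 genes, 53 of them measured. By the rule of size 9 were higher and 6 lower, 28.3% of those measured against 11.6% of all genes, with a median log2 fold of 0.04. The calls did not share a direction within the set, and are given by role. Lists fixed with earlier results of these data known cannot serve as independent evidence.

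Among 13 proteases reported to cleave ENaC, 5 were measured and 2 were higher, or 40.0% called beside 11.6% of all measured genes. PLAU, the urokinase plasminogen activator, had 944 and 209 pairs (log2 fold 2.10, 1.88 to 2.32). CTSS, cathepsin S, had 80 and 32 pairs (1.23, 0.64 to 1.89), and its call was lost at 1.04 (0.45 to 1.70) with the trend on GC content and length removed. FURIN, the protease that cleaves the subunits in the Golgi, was abundant in both libraries with 402 and 330.5 CPM (0.28, 0.24 to 0.32). The lysosomal protease CTSB had 532 and 469 CPM (0.18, 0.15 to 0.22) and PCSK6, a furin relative, 4.17 and 2.67 (0.64, 0.17 to 1.12). The membrane-bound channel-activating proteases of epithelia, named here after their values were seen, were near the detection limit: PRSS8 had 2 and 6 pairs, ST14 6 and 11, and TMPRSS4 0 and 1.

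Of 5 inhibitors of such proteases 4 were measured, with 2 higher and 1 lower, or 75.0% called beside 11.6% of all measured genes. SERPINE2, protease nexin 1, had 16269 and 4301 pairs (1.84, 1.80 to 1.89). SPINT1, a membrane-bound inhibitor of matriptase, was lower with 101 and 246 pairs (-1.36, -1.71 to -1.02); its call was lost at -0.92 (-1.27 to -0.58) with the trend removed. Its relative SPINT2 had 29 and 25 pairs (0.14, -0.68 to 0.97).

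All 14 ubiquitin and trafficking genes were measured, and 2 were lower and 0 higher, or 14.3% called beside 11.6% of all measured genes. NEDD4L, the ligase that marks ENaC for removal, had 190 and 489 pairs (log2 fold -1.44, -1.69 to -1.19). USP2, a deubiquitinase that opposes it, had 83 and 194 pairs (-1.30, -1.69 to -0.92). The abundant members were not called: AP2M1, an adaptor of clathrin-mediated uptake (-0.32, -0.34 to -0.29), and the 14-3-3 proteins YWHAE (-0.35, -0.39 to -0.32) and YWHAB (0.20, 0.14 to 0.26).

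Of 21 corticosteroid receptor and kinase genes, 18 were measured, 3 were higher and 0 lower, or 16.7% called beside 11.6% of all measured genes. NR3C1, the glucocorticoid receptor, had 97 and 26 pairs (1.80, 1.19 to 2.51). WNK4, a kinase that regulates renal sodium transport, had 149 and 52 (1.43, 0.98 to 1.93). SGK1, which inhibits NEDD4L by phosphorylation, had 1980 and 919 (1.03, 0.92 to 1.15), and its call was lost at 0.79 (0.68 to 0.90) with the trend removed. MLST8, MTOR and DOT1L, the most abundant of those not called, had log2 folds of -0.45, 0.00 and -0.07. NR3C2, the mineralocorticoid receptor through which aldosterone acts, is named after its value was seen: with 11 and 6 pairs it did not reach 1 CPM in either library.

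The sodium pump, which carries sodium out of the cell, and partner transporters made up 13 genes, 9 of them measured. Of these 2 were higher and 3 lower, or 55.6% called beside 11.6% of all measured genes. ATP1B1 had 139 and 25 pairs (2.38, 1.78 to 3.08) and FXYD5, a pump regulator, 297 and 87 (1.69, 1.35 to 2.06). Among the lower genes, ATP1B2 had 95 and 219 pairs (-1.28, -1.64 to -0.93) and FXYD6, another pump regulator, 18 and 100 (-2.52, -3.36 to -1.82). The beta subunit gene ATP1B3 (0.59, 0.53 to 0.65) was not called. CFTR and KCNJ1, apical partners of ENaC in epithelia, had 0 pairs in both libraries, which allows up to 3 pairs of each.

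The acid-sensing channels, the nearest relatives of ENaC, are listed in the tables under their older ACCN symbols. Of the 5 genes 3 were measured and 0 called. ACCN2 (ASIC1) had 249 and 457 pairs (-0.95, -1.18 to -0.73), ACCN1 (ASIC2) 381 and 440 (-0.28, -0.48 to -0.08) and ACCN3 (ASIC3) 92 and 65 (0.42, -0.05 to 0.91). The intervals of SCNN1B and SCNN1G overlapped with none of these.

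**Figure D4:**
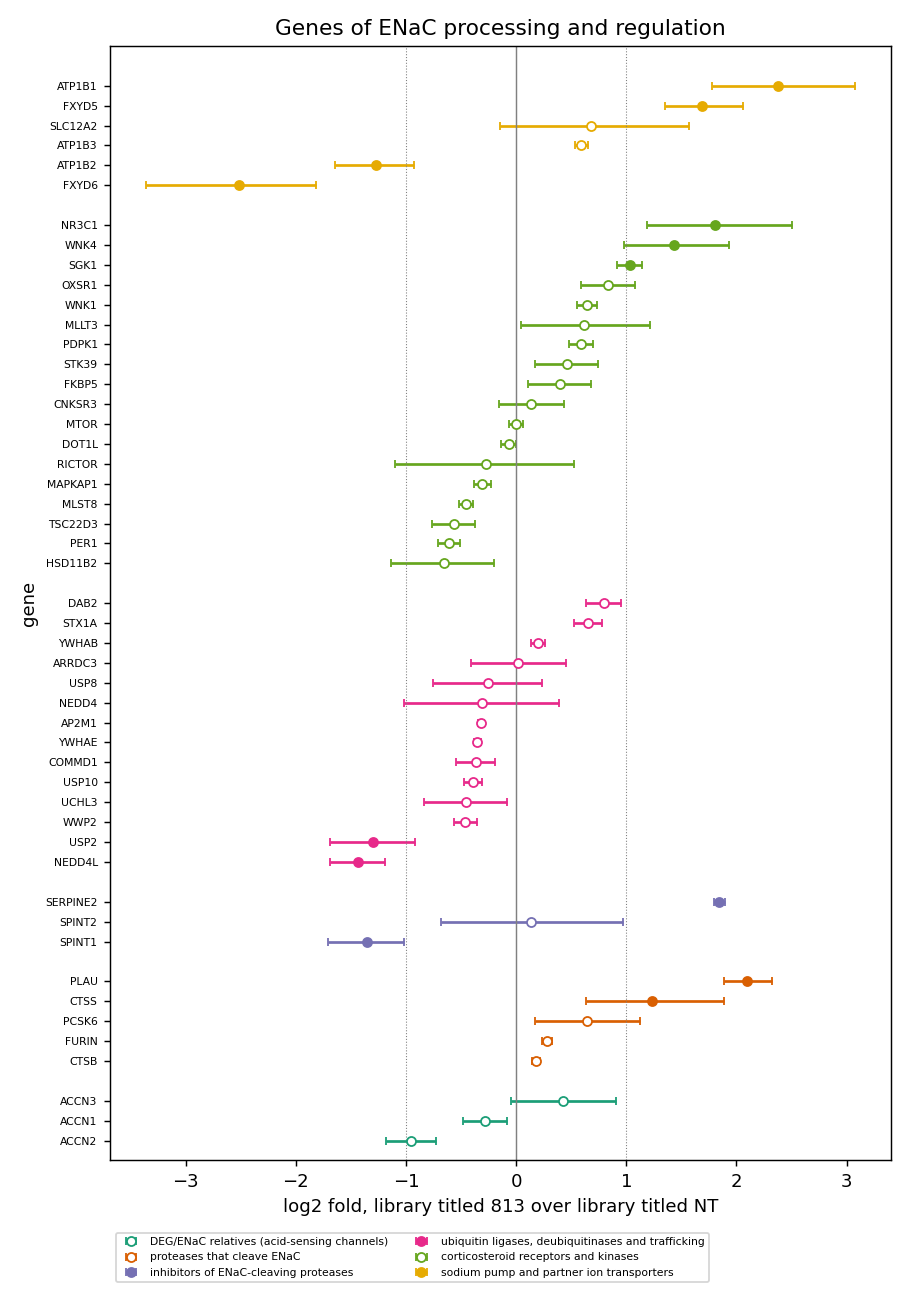
Log2 fold, 813 over NT, of measured genes of the 6 lists, a few of which are not drawn, coloured by list, with 95% counting bars; filled circles are called genes and dotted lines mark 2-fold. Both directions occur: ATP1B1 (2.38) and PLAU (2.10) were highest and FXYD6 (-2.52) and NEDD4L (-1.44) lowest among those drawn.

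Subunit transcripts of an epithelial channel were present with few epithelial markers. Of 15 epithelial markers 2, the keratins KRT8 and KRT18, were measured, at 49.0 and 71.7 CPM for KRT8 and 625 and 563 CPM for KRT18. They made up nearly all of the list's summed 676 and 638 CPM. Of the 15, 6 were at or under 3 pairs in both libraries. Among these the defining adhesion genes CDH1 and EPCAM had 1 and 0, and 0 and 1 pairs. GRHL2 had 0 and 1, and OVOL1 and OVOL2 were at 0 in both libraries. Others held more pairs but stayed under 1 CPM in both: KRT19 had 4 and 17, ESRP2 14 and 14, CLDN7 9 and 11 and RAB25 8 and 11. Of 9 kidney tubule markers, included because virus was made in a kidney-derived line, 7 were at or under 3 pairs in both libraries, among them UMOD and CALB1 at 0. The 2 measured, PAX8 (195 and 184 pairs) and AVPR2 (45 and 12 pairs), made up nearly all of the list's summed 9.93 and 8.62 CPM. Whether the virus-producing line itself holds these transcripts was not tested. Of 6 leukocyte markers 3 were measured and 0 called: CD68 had 274 and 272 pairs, CD14 30 and 14, and LYZ 24 and 30. PTPRC had 0 and 1 pairs and CD3E was at 0, and the list summed to 13.9 CPM in each library. All 10 Ewing sarcoma markers were measured, summing to 6862 and 6204 CPM. Most of each sum came from CD99, at 4026 and 3808 CPM, and CCND1, at 1835 and 1193 CPM. NKX2-2 (-1.43, -1.50 to -1.36) and NR0B1 (-1.11, -1.17 to -1.05) of this list were lower, the latter no longer called with plain total counts (-0.97).

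With only 2 libraries, likeness to a subunit gene can be no more than nearness of the log2 CPM in both. Nearest to SCNN1G by this distance were PADI2 (0.33 log2 units), TUBB4A (0.44) and PPDPF (0.45), with log2 folds of -2.73, -1.74 and -1.79. Nearest to SCNN1B were CACNA1I (0.38), which encodes a T-type calcium channel, MAPK8IP2 (0.40) and CHST1 (0.40), with log2 folds of -2.13, -2.08 and -2.76. None of these 6 genes lies on chromosome 16.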

How the data were processed

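Poly(A) RNA of 1 library per group was compared. Per the submitters' processing notes CASAVA 1.9, TopHat2 2.0.6 and HTSeq were used on hg19; their order, the annotation and the strand setting were not stated there. The authors deposited counts and RPKM per gene and per exon. Their RPKM rests on totals of 60848394 and 63156235 reads. Every deposited gene count is even (0 odd values), so counts were divided by 2 and read as pairs; exon reads were divided by 2 for folds and intervals. After 46 repeated rows were dropped, 23342660 and 24326135 pairs remained.

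TMM factors of 1.05 and 0.954 (edgeR 4.0.16 in R 4.3.3) scaled both libraries, with a prior of 0.5 pairs. Exact intervals came from scipy 1.17.1 in Python 3.11.15. The rule of size was tested on simulated counts that held counting error only, so that test cannot speak to differences between cultures or preparations. The genes and lists were chosen with earlier results of these data known. Named, apart from genes not reported here, were the 4 subunit genes, RUNX3, called list members (up to 4 per direction), the 3 most abundant others per list, flanking and called neighbours, and the 3 genes nearest in level to SCNN1B and to SCNN1G. The planned comparison of subunit proteins was not made. A few list genes are counted in the totals but not reported here.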

Additional observations from a re-analysis of the deposited data

How the results depend on the processing

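The log2 folds of SCNN1B and SCNN1G kept their sign and stayed beyond 4-fold under every alternative run. With plain total counts, the authors' RPKM and totals without the 20 most abundant genes SCNN1G was at -2.22, -2.22 and -2.22. With a smooth trend on GC content and length removed (11022 genes, 15.5% of the variance), SCNN1B was at -2.30 and SCNN1D at 0.062 (its sign changed), and 250 genes were called lower against 427. Under this trend the cleaving proteases had 1 higher gene, the protease inhibitors 0 lower, the trafficking genes 1 higher (STX1A, 1.09), the Ewing markers 1 lower and the SCNN1D locus 2 higher. The Ewing markers also had 1 lower gene with plain totals, RPKM and totals without the 20 most abundant genes. With a minimum of 5 CPM the cleaving proteases had 1 higher gene and the kidney markers 0. With no minimum the SCNN1A locus had 1 lower gene and the SCNN1D locus 2 higher. Within 250 kb in place of 500 kb the SCNN1G and SCNN1B locus had 0 lower genes, and the SCNN1A and SCNN1D loci 0 higher. The cause of these shifts was not tested. DESeq2 size factors, undivided counts, a prior of 2 pairs, summed exon records and summed exon lengths moved none of the counts of calls by over 1.5 times, and no subunit fold or subunit ratio outside its counting interval. The use of exon records 3 to 13 for SCNN1G was chosen after seeing the data. No paired analysis was possible because each group has 1 library. Depth limits SCNN1A, where 3 pairs could not be told from 0, and the exons of SCNN1D.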

Other observations

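AVPR2, the vasopressin receptor that raises ENaC at the membrane of kidney collecting duct cells, had 45 pairs in the 813 library and 12 in the NT library, a log2 fold of 1.79 (0.89 to 2.89), and was the called gene among the kidney tubule markers. The kidney and thyroid transcription factor PAX8 of that list had 195 and 184 pairs (0.01, -0.29 to 0.31). The water channel AQP2, which vasopressin moves to the membrane in the same cells, had 2 and 0 pairs.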
